A study of Rattus norvegicus with 9 samples.

Results

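CD4+ T cells from the blood of rats with untreated arthritis were compared with those of normal rats, gene by gene and transcript by transcript. The series holds 9 libraries of total RNA from peripheral blood CD4+ T cells of SD rats aged 8 to 10 weeks, and the 6 of them described here are the 3 of the normal group and the 3 of the model group. The model group carried CIA, read as collagen-induced arthritis because the series' title concerns rheumatoid arthritis, and received none of the study's compounds. The third group, arthritic rats that received combined compounds over 4 weeks, entered only the estimate of the spread and a few values set beside those of the model. Genes were kept where their mean was at least 1 TPM (the share of a library's transcripts, corrected for length and depth) over the 6 libraries, which left 13959 of 36858 gene units. The same rule left 35400 of 80092 transcripts. No label gives the method of CD4+ selection or ties libraries to separate animals, so p-values measure only the spread between these libraries, which may be technical.

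Collagen-induced arthritis is started by immunisation with type II collagen, and CD4+ T cells are needed to prime the response against joint cartilage. Signals from the antigen receptor, costimulatory receptors and cytokine receptors reach T cell genes mainly through NF-kB, AP-1, NFAT and STAT factors. Many of the genes these factors switch on encode brakes on the same signals, such as IkB proteins, MAP kinase phosphatases and SOCS proteins. Growing T cells also take up more amino acids, charge more tRNA and fold more protein in the endoplasmic reticulum. ATF4 and the IRE1-XBP1 branch of the unfolded protein response govern much of that gene expression.

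Model replicate 2 stood between the groups. The first principal component of the 6 libraries, which held 45.2% of the variance, put model replicate 2 at 1.10. It put model replicates 1 and 3 at 41.1 and 58.7 and the normal libraries at -39.3 to -29.9. The mean correlation of model replicate 2 over genes was 0.942 with its own group and 0.947 with the normal group. The other 5 libraries correlated better with their own group, at 0.948 to 0.962 against 0.914 to 0.934. The aligned depth was 8.04 to 10.1 gigabases per library, lowest in model replicate 2. The model libraries also varied more among themselves, with a median SD over genes of 0.293 on the log2 scale against 0.162 in the normal group.

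In all, 432 genes rose and 334 fell in the arthritis model at an adjusted p under 0.05, which is 3.09% and 2.39% of the genes tested. Counts in the gene lists below are to be read beside these shares, and 1 call in a list is not read as a change of the list. At least a 2-fold change was reached by 267 higher and 228 lower genes. The 3 model libraries lay wholly above the normal ones for 19.0% of all genes and wholly below for 14.7%, and the groups did not overlap for any of the 766 genes that passed. The spread was estimated over all 9 libraries. In a fit of only the 6 libraries 189 genes passed (1.35%), of which 181 were among the 766. Left out one at a time, normal replicates 1, 2 and 3 gave 116, 36 and 67 genes and model replicates 1 and 3 gave 246 and 158. Without model replicate 2 the count was 2924 (20.9% of all genes tested, 9.25% higher and 11.7% lower), with 761 of the 766 among them. No call turned its direction in any of these fits, which was fixed in advance because the groups of the called genes did not overlap. The assembled loci of Relb, Nfkb1, Birc3, Klf10, Kdm6b, Pim2, Odc1, Bcl2l11, Atf4, Calr, Manf, Mcoln1, Aoc3, SNORA16, SNORA26 and Tmem147 each hold at least 1 other gene name, so the division of reads there is uncertain, and whether counting used strand is not given in the sources used here.

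**Figure D1:**
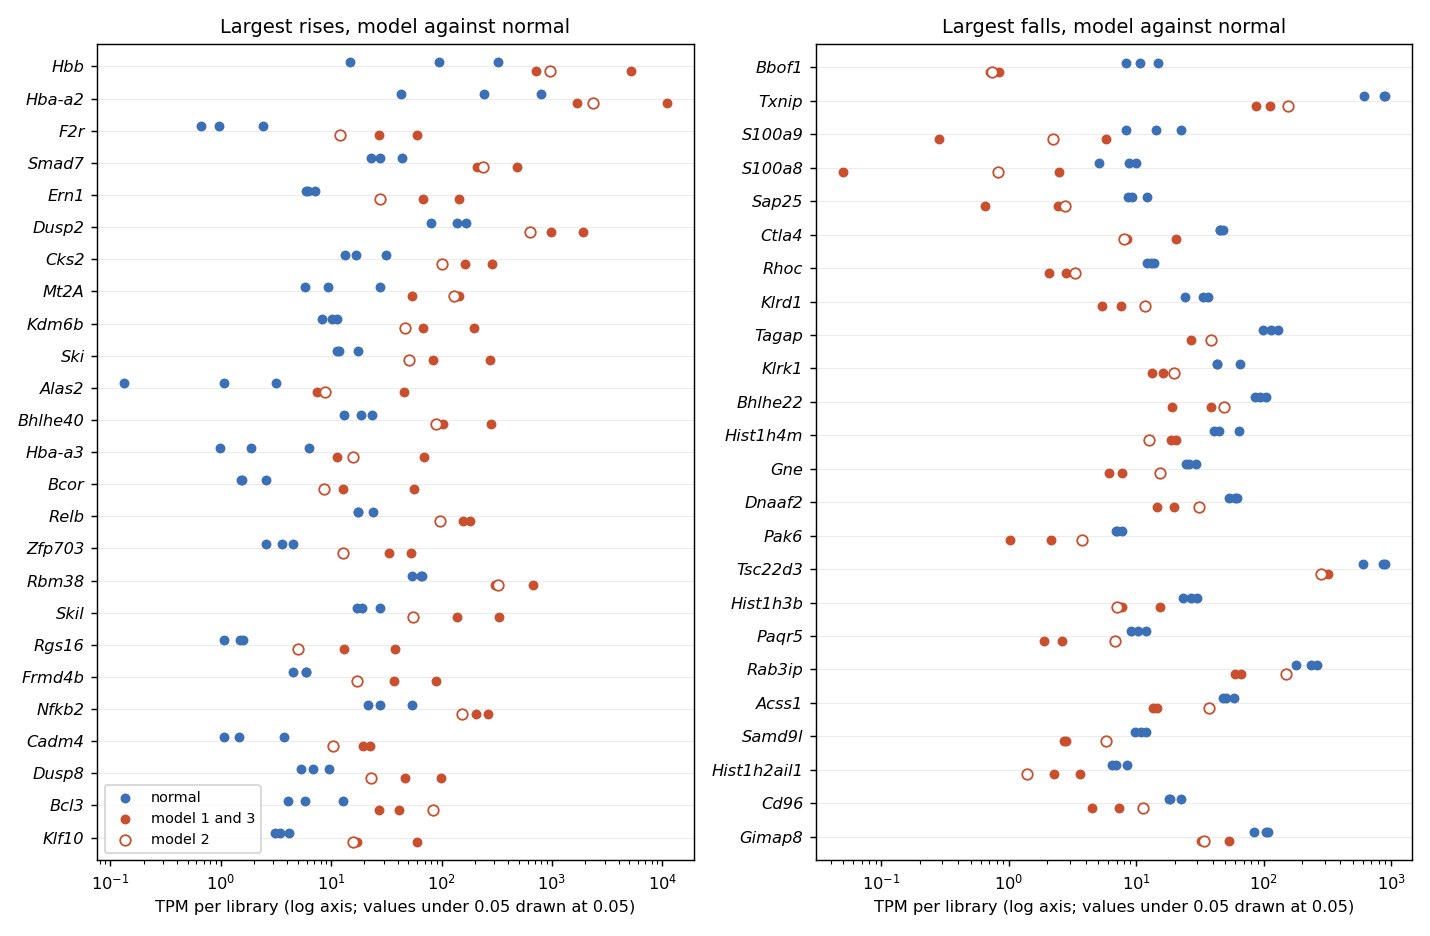
TPM in each of the 6 libraries (log axis) of the 25 genes with the largest rises and 24 of the 25 with the largest falls, among genes of at least 300 bases chosen by the size of their change. Blue points are the 3 normal libraries, filled red points model replicates 1 and 3, and open red points model replicate 2. Genes were drawn only where the groups do not overlap. In Rab3ip and Acss1 model replicate 2 lies close to the normal libraries.

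Among the transcription factors of the NF-kB family, Relb, Nfkb2 and Rela rose. RELB and the p52 product of Nfkb2 form the dimer of the non-canonical pathway, and RELA is the main transactivating subunit of the canonical one. Relb stood at 24.0, 17.6 and 17.4 TPM in normal replicates 1, 2 and 3 and at 156, 96.2 and 180 TPM in model replicates 1, 2 and 3, a log2 fold change equal to 2.78 ± 0.306 (SE, adjusted p = 0.00618). Nfkb2 stood at 54.2, 21.4 and 27.8 TPM against 207, 152 and 262 TPM, a log2 fold change of 2.62 ± 0.361 (adjusted p = 0.0128). Even the lowest model library was above the highest normal one in both genes. Rela was 123, 85.1 and 87.5 TPM against 211, 246 and 324 TPM (log2 fold change 1.39 ± 0.229, adjusted p = 0.0195). Rel and Nfkb1 did not pass, at log2 fold changes of 1.77 (adjusted p = 0.0501) and 1.06 (adjusted p = 0.0629), although their groups did not overlap either. All log2 fold changes here are of TPM + 1. The 5 subunits had a median log2 fold change of 1.77, beside -0.01 over all genes tested. The 3 that passed also did so with only the 6 libraries, and 1 (Relb) passed without normal replicate 2.

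The 5 promoters shown next belong to 4 genes of the NF-kB lists and to Lta, a known NF-kB target. Each of these genes rose and carries a kappa B consensus in the 250 bases before the annotated start, and Nfkbie, which also does, is not shown. Stretches of their promoters follow in the direction of the gene, from RefSeq on the GRCr8 build, with the matches to the consensus in capitals.
Nfkb2: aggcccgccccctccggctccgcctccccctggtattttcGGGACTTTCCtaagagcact
Nfkbia: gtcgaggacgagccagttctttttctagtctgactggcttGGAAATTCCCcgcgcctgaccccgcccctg
Bcl3: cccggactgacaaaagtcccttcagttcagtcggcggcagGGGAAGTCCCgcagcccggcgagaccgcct
Tnip1: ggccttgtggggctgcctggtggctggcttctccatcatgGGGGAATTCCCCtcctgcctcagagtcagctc
Lta: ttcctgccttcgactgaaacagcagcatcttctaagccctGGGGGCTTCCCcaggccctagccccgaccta
The stretches lie at chr1:255108314-255108373 (plus strand), chr6:78597074-78597143 (minus), chr1:88613564-88613633 (minus), chr10:39585016-39585087 (minus) and chr20:3623393-3623463 (plus). The matches begin 20, 31, 38, 86 and 94 bases before the start site. Both strands were searched, and overlapping matches on the 2 strands are capitalised as 1 run. The consensus was present in 41 of 316 promoters of higher genes (12.97%), 4 of 72 of lower genes (5.56%), 737 of 7921 of all tested genes (9.30%) and 7.60% of the 27457 promoters of the RefSeq set. In the lists of NF-kB subunits and inhibitors it was present in 5 of 7 promoters of genes that rose and in 4 of 7 of genes that did not pass, among them Nfkb1 and Rel. A match is a stretch of letters and does not show that a factor was bound.

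Inhibitors and partners of NF-kB rose beside the subunits, 5 of the 11 tested (beside 3.09% of all genes), and none fell. Their median log2 fold change was 1.07. Nfkbia encodes IkB-alpha, which holds NF-kB in the cytoplasm, and stood at 361, 267 and 348 TPM against 739, 485 and 872 TPM (log2 fold change 1.07 ± 0.253, adjusted p = 0.0432). Its relatives Nfkbie and Nfkbib, which encode IkB-epsilon and IkB-beta, had log2 fold changes of 1.83 (adjusted p = 0.0230) and 0.99 (adjusted p = 0.0147). Bcl3, a nuclear IkB protein that binds p50 and p52 dimers, stood at 12.8, 4.08 and 5.84 TPM against 26.9, 83.2 and 41.2 TPM (log2 fold change 2.56 ± 0.516, adjusted p = 0.0286). It was highest in model replicate 2. Tnip1, whose product binds A20, was 115, 117 and 103 TPM against 242, 220 and 299 TPM (adjusted p = 0.0197). Tnfaip3, which encodes A20 itself, differed by a log2 value of 0.14 (adjusted p = 0.784). With only the 6 libraries 3 of the 11 passed, and without normal replicate 2 or 3 none did at an adjusted p under 0.05.

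Of the TNF family, Lta rose among 6 ligand genes and none of 10 receptor genes passed. Lta encodes lymphotoxin alpha, a secreted ligand of TNF receptors, and stood at 2.43, 1.64 and 2.32 TPM against 12.8, 14.4 and 18.5 TPM (log2 fold change 2.37 ± 0.252, adjusted p = 0.00618). Its model libraries were close to each other, model replicate 2 included. Ltb and Tnf had log2 fold changes of 0.53 and 1.12 (adjusted p = 0.386 and 0.172). The receptor list had a median log2 fold change of -0.11.

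Inducible genes that restrain kinase and G protein signals were higher in part. Of 12 MAP kinase phosphatases Dusp2 and Dusp8 rose. Dusp8, which acts on JNK and p38, stood at 9.47, 6.78 and 5.36 TPM against 46.8, 23.1 and 99.5 TPM (log2 fold change 2.60 ± 0.479, adjusted p = 0.0245). Of 7 RGS genes, whose products end signals of G protein-coupled receptors, Rgs1 and Rgs16 rose. Rgs1 was abundant in both groups, at 605, 590 and 707 TPM against 1383, 986 and 1425 TPM (adjusted p = 0.0270), while Rgs16 went from 1.06 to 1.60 TPM up to 4.99 to 37.5 TPM (log2 fold change 2.65 ± 0.549, adjusted p = 0.0302). Dusp2 and Rgs1 also passed with only the 6 libraries. When 1 library was left out, members of the 2 lists passed only without model replicate 2. There 4 MAP kinase phosphatases and 3 RGS genes were higher and 1 RGS gene lower, beside 9.25% and 11.7% of all genes.

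Of 10 feedback genes of cytokine receptors Socs3, Cish, Pim2 and Pim3 rose, with a median of 0.83 for the list. Cish, a STAT5 target that binds the IL-2 receptor, stood at 1.14, 0.70 and 0.84 TPM against 3.37, 5.21 and 4.31 TPM (log2 fold change 1.48 ± 0.239, adjusted p = 0.0183), again highest in model replicate 2. Pim2, a survival kinase, stood at 70.0, 46.6 and 42.2 TPM against 148, 167 and 287 TPM (log2 fold change 1.88 ± 0.328, adjusted p = 0.0222). Of 10 JAK and STAT genes none passed, and their median was 0.18. Il6st, the shared signalling receptor gp130, was the 1 of 22 cytokine receptor genes that rose, from 22.1, 24.5 and 25.6 TPM to 41.2, 38.7 and 55.9 TPM (log2 fold change 0.87 ± 0.203, adjusted p = 0.0417). A single call among 22 genes is close to the 5.49% of all genes that passed. The SOCS and Pim list gave 2 calls with only the 6 libraries and none without normal replicate 2, without normal replicate 3 or without model replicate 3.

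Nuclear factors moved in several families. Of 10 AP-1 genes Junb, Maff and Mafk rose and none fell. JUNB is a DNA-binding AP-1 subunit, whereas the small MAF proteins lack a transactivation domain. Maff stood at 29.6, 24.6 and 30.0 TPM against 90.2, 62.4 and 138 TPM (log2 fold change 1.68 ± 0.280, adjusted p = 0.0206). Fos, by contrast, showed a log2 fold change of -1.19 with an adjusted p of 0.325. AP-1 calls came to 1 with only the 6 libraries and to 0 without normal replicate 1, 2 or 3. Of 15 early response genes Ier5 and Klf10 rose. Klf10, a zinc finger factor first known as a TGF-beta early gene, stood at 4.13, 3.09 and 3.43 TPM against 17.0, 15.8 and 59.3 TPM (log2 fold change 2.54 ± 0.473, adjusted p = 0.0248). It did not pass with only the 6 libraries (adjusted p = 0.0558).

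TGF-beta genes gave 4 rises among 14 (beside 3.09% of all genes). All were in genes that restrain the pathway, the inhibitory Smad7 and the corepressors Tgif1, Ski and Skil. Skil, which encodes SnoN, stood at 19.1, 17.1 and 27.4 TPM against 138, 55.6 and 333 TPM (log2 fold change 2.66 ± 0.521, adjusted p = 0.0270). Its 3 model libraries spanned a wide range, as those of Ski did, at 83.2, 50.7 and 274 TPM. Smad7 alone of the 14 passed with only the 6 libraries, and without normal replicate 2 none did. The receptor genes Tgfbr1 and Tgfbr2 did not pass (log2 fold changes 0.57 and 1.51, adjusted p = 0.176 and 0.125). Id3, an inhibitor of E proteins, went from 19.5, 22.7 and 19.3 TPM to 89.2, 46.2 and 211 TPM (log2 fold change 2.17 ± 0.478, adjusted p = 0.0358) and was the 1 of 6 Id and E protein genes past the threshold.

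Of 14 factors of T helper lineages Rora and Irf4 rose. Rora, which takes part in the Th17 programme, was 7.25, 7.03 and 7.34 TPM against 15.4, 12.8 and 30.6 TPM (log2 fold change 1.23 ± 0.286, adjusted p = 0.0413). Irf4, induced by the antigen receptor, was 1.24, 0.59 and 1.00 TPM against 3.08, 2.62 and 7.34 TPM (adjusted p = 0.0372). Tbx21 differed by a log2 value of 1.20 (adjusted p = 0.0589), Gata3 one of 0.48 (adjusted p = 0.247) and Foxp3 one of 0.44 (adjusted p = 0.193), so lineage factors of Th1, Th2 and regulatory T cells did not pass. Neither Rora nor Irf4 passed with only the 6 libraries (adjusted p = 0.0861 and 0.0870), and when 1 library was left out members of the list passed only without model replicate 2. Bhlhe40, a factor that T cells use to make cytokines, stood at 23.5, 13.1 and 18.7 TPM against 104, 89.4 and 282 TPM (log2 fold change 2.88 ± 0.428, adjusted p = 0.0153). Bcor, the corepressor that binds BCL6, stood at 1.56, 1.53 and 2.58 TPM against 12.8, 8.60 and 56.7 TPM (log2 fold change 2.79 ± 0.562, adjusted p = 0.0286). Kdm6b, an H3K27 demethylase, was the 1 of 19 histone demethylase and Polycomb genes that passed, close to the 5.49% of all genes.

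**Figure D2:**
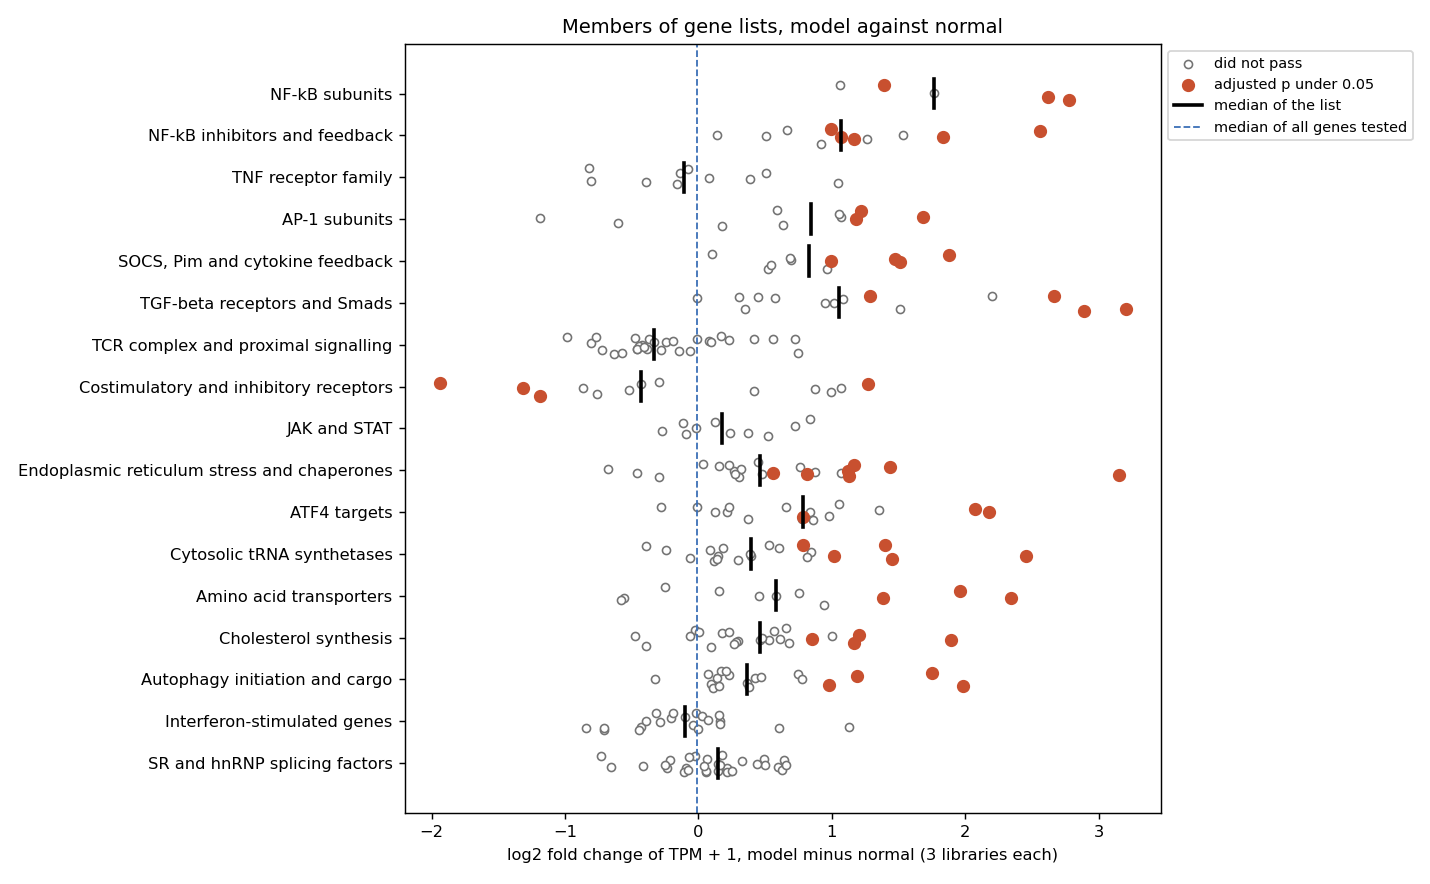
Log2 fold change of TPM + 1, model minus normal, for each tested member of 17 gene lists, with 3 libraries per group. Filled points passed at an adjusted p under 0.05, open points did not, black bars are medians of the lists, and the dashed line is the median of all genes (-0.01). The NF-kB subunits have the highest median (1.77), and in the T cell receptor list the median is -0.33 with no member past the threshold.

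Some genes that supply amino acids or charge tRNA rose, as did some targets of ATF4. Of 16 ATF4 targets Trib3, Chac1 and Psat1 rose, of 11 amino acid transporters Slc7a5, Slc7a1 and Slc1a4, and of 20 cytosolic tRNA synthetases Aars, Cars, Iars, Tars and Yars, while none fell in the 3 lists. Trib3, a pseudokinase that restrains ATF4, stood at 12.9, 12.8 and 12.2 TPM against 55.5, 35.6 and 90.5 TPM (log2 fold change 2.07 ± 0.295, adjusted p = 0.0134). Its normal libraries nearly coincided. Slc7a5, the light chain of the large neutral amino acid transporter LAT1, stood at 68.0, 38.6 and 40.3 TPM against 231, 144 and 435 TPM (log2 fold change 2.34 ± 0.372, adjusted p = 0.0173). Cars, the cysteine synthetase, stood at 10.6, 7.26 and 7.31 TPM against 68.9, 23.3 and 76.6 TPM (log2 fold change 2.46 ± 0.402, adjusted p = 0.0187). Atf4 itself differed by a log2 value of -0.01 (adjusted p = 0.958), and Asns, asparagine synthetase, one of 0.84 (adjusted p = 0.0879). The medians of the 3 lists were 0.78, 0.58 and 0.39. With only the 6 libraries 1 of these 11 genes (Trib3) passed, and without normal replicate 2 or 3 none did. Without model replicate 2 there were 9, 5 and 9 calls upward, and 2 transporters were lower, beside 9.25% and 11.7% of all genes.

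Of the 11 genes that rose 9 carry a motif that Slc7a5 and Psat1 lack, and stretches around it are shown for 5 of the 9. The site bound by ATF4 together with C/EBP proteins was searched as TGATGNAA on both strands, and in each stretch it lies on the strand opposite to the gene, in capitals.
Chac1: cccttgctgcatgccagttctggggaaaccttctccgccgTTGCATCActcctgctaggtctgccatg
Trib3: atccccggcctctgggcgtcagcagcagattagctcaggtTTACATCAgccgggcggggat
Aars: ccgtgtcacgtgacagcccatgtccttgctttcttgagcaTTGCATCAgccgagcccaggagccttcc
Iars: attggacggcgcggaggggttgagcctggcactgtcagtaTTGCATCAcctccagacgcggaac
Tars: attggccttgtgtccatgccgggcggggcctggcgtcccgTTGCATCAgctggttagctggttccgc
On GRCr8 they lie at chr3:126795924-126795991 (plus strand), chr3:161275534-161275594 (minus), chr19:55908330-55908397 (plus), chr17:15193653-15193716 (minus) and chr2:62114803-62114869 (minus), and the matches begin 167, 21, 112, 24 and 27 bases before the start. In the 3 lists the motif was also within the 300 bases of promoter of 3 of the 31 others with a promoter (Mars, Nars and Slc38a1). Over all tested genes the share was 1.93%, among higher genes 4.75%, among lower genes 2.78% and 3.82% in all 27457 promoters of the RefSeq set. The 5 genes were drawn because they hold the motif, and no test was made on it.

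The endoplasmic reticulum list gave 7 rises among 22 genes (beside 3.09% of all genes) and no fall, with a median of 0.46. Ern1 encodes IRE1-alpha, the sensor that splices Xbp1 mRNA, and stood at 7.07, 5.92 and 6.18 TPM against 68.2, 27.6 and 142 TPM (log2 fold change 3.16 ± 0.487, adjusted p = 0.0168). Xbp1 stood at 19.8, 19.8 and 23.4 TPM against 39.8, 44.4 and 62.9 TPM (log2 fold change 1.17 ± 0.215, adjusted p = 0.0247). Calr, a calcium-binding chaperone of glycoproteins, stood at 487, 346 and 344 TPM against 1040, 824 and 1349 TPM (log2 fold change 1.44 ± 0.210, adjusted p = 0.0147). Hspa5, the major chaperone BiP, passed with the smallest of the 7 changes, from 562, 507 and 455 TPM to 698, 729 and 816 TPM (log2 fold change 0.56 ± 0.135, adjusted p = 0.0450). Dnajb11, Sdf2l1 and Manf, which encode partners of BiP or a secreted stress factor, rose by 0.81 to 1.13 on the log2 scale. Eif2ak3, which encodes PERK, differed by a log2 value of -0.30 (adjusted p = 0.261). Ern1, Xbp1 and Calr passed with only the 6 libraries too, and none of the 22 did without normal replicate 2 or 3.

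Metabolic genes moved in smaller numbers. Of 23 sterol genes Srebf1, Insig1, Cyp51 and Sc5d rose. Srebf1, which encodes the lipid synthesis factor SREBP-1, stood at 29.2, 19.0 and 17.6 TPM against 73.4, 69.2 and 110 TPM (log2 fold change 1.90 ± 0.233, adjusted p = 0.00856). Of 19 autophagy genes Ulk1, Gabarapl2, Sqstm1 and Optn rose. Optn, a receptor that brings ubiquitinated cargo to autophagosomes, stood at 16.8, 14.9 and 13.9 TPM against 70.5, 30.0 and 116 TPM (log2 fold change 1.98 ± 0.407, adjusted p = 0.0297). Odc1, the first enzyme of polyamine synthesis, stood at 124, 80.6 and 100.3 TPM against 428, 231 and 711 TPM (log2 fold change 2.03 ± 0.361, adjusted p = 0.0230) and was the 1 of 10 polyamine genes past the threshold. Of 19 genes of glucose uptake and glycolysis Hk2 and Pfkfb3 rose and Tpi1 fell. Hk2, hexokinase 2, was 17.1, 17.9 and 19.5 TPM against 36.5, 63.5 and 52.4 TPM (log2 fold change 1.40 ± 0.282, adjusted p = 0.0286). Of these genes Srebf1 and Hk2 also passed with only the 6 libraries.

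Receptors of the T cell surface moved in both directions. Of 13 costimulatory and inhibitory receptors Ctla4, Cd96 and Cd226 fell and Slamf1 rose. CD96 and CD226 compete for nectin-family ligands, the first mainly inhibitory and the second activating. Cd96 stood at 18.0, 18.3 and 22.2 TPM against 4.46, 11.3 and 7.25 TPM (log2 fold change -1.31 ± 0.266, adjusted p = 0.0286). Cd226 stood at 3.35, 4.14 and 4.01 TPM against 0.91, 2.20 and 0.55 TPM (log2 fold change -1.19 ± 0.260, adjusted p = 0.0353). Both were nearest to normal in model replicate 2. Slamf1, a homophilic receptor, stood at 11.5, 6.92 and 6.93 TPM against 17.3, 34.7 and 16.1 TPM (log2 fold change 1.27 ± 0.294, adjusted p = 0.0404) and was highest there. Tigit, which shares ligands with CD226, differed by a log2 value of 0.42 (adjusted p = 0.298). Cxcr5, the receptor that guides T cells to B cell follicles, was the 1 of 12 chemokine and homing receptors that rose, from 4.26, 5.09 and 5.38 TPM to 9.26, 15.5 and 19.7 TPM (log2 fold change 1.37 ± 0.264, adjusted p = 0.0262). With only the 6 libraries Ctla4 alone of the 13 receptors passed.

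None of 29 genes of the antigen receptor and its proximal kinases passed, beside 5.49% of all genes, and their median log2 fold change was -0.33. Without model replicate 2, 2 members were higher and 9 lower, beside 9.25% and 11.7% of all genes. Smaller lists gave 1 or 2 calls each. Mt1 and Mt2A, metal-binding metallothioneins, rose among 9 tested genes of that list. Bcl2l11, the pro-apoptotic protein BIM, was 1 of 11 BCL-2 family genes to pass, and Gadd45b and Gadd45g were 2 of 15 stress genes. Cks2 and Mcm5 rose among 18 cell cycle genes, beside Mki67 and Top2a, which stayed under a mean of 1 TPM. Txnip was the 1 gene to fall among 16 FoxO targets and among 19 antioxidant genes, and Id3 the 1 to rise among 14 naive T cell factors. Of 21 interferon-stimulated genes none passed either (median -0.10), nor did any of 31 SR and hnRNP splicing factors (median 0.15).

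Of 8 tested genes of cytotoxic granules and killer receptors 2 fell, Klrk1 and Klrd1, and the median log2 fold change of the 8 was -0.46. Klrk1, which encodes NKG2D, stood at 65.1, 43.1 and 42.9 TPM against 16.3, 19.8 and 13.2 TPM (log2 fold change -1.55 ± 0.210, adjusted p = 0.0125). Klrd1, which encodes CD94 and lies beside Klrk1 on rn6 chromosome 4 (Klrd1 at 163358009 to 163369918 and Klrk1 at 163390958 to 163403733), stood at 36.5, 24.1 and 33.1 TPM against 7.58, 11.6 and 5.42 TPM (log2 fold change -1.84 ± 0.321, adjusted p = 0.0222). The 10 markers of NK and cytotoxic cells, Klrk1 and Klrd1 among them, summed to 101 to 162 TPM in the normal group and 49.9 to 73.8 TPM in the model group. Without Klrk1 and Klrd1 the sums of the groups overlap. Prf1 differed by a log2 value of -0.33 (adjusted p = 0.494), while Gzma, Gzmb and Nkg7 reached at most 0.287, 0.356 and 1.55 TPM in any of the 6 libraries. In bulk RNA fewer cells of a type and less RNA per cell cannot be told apart. The part of such cells in the falls of Klrk1 and Klrd1 was not tested. The call of Klrk1 held in each fit that left out 1 library and that of Klrd1 only without model replicate 2.

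Other leading falls came from varied genes. Txnip, which restrains glucose uptake, stood at 608, 899 and 873 TPM against 113, 154 and 86.6 TPM (log2 fold change -2.76 ± 0.232, adjusted p = 0.00233). An unnamed clone gene of the annotation, AABR07012592.1 (rn6 chromosome 2, 198682514 to 198682708), lies directly beside Txnip (198683159 to 198686974) and stood at 10.8, 8.94 and 7.58 TPM against 0.89, 0.66 and 0.67 TPM (adjusted p = 0.00263). Tsc22d3, which encodes the glucocorticoid-induced protein GILZ, stood at 603, 899 and 859 TPM against 321, 282 and 282 TPM (log2 fold change -1.40 ± 0.200, adjusted p = 0.0138). The 3 model libraries lay close together in that gene. Tagap, a GTPase-activating protein of activated T cells, stood at 97.8, 128 and 114 TPM against 38.9, 38.8 and 26.7 TPM (log2 fold change -1.69 ± 0.197, adjusted p = 0.00772). Rab3ip, which activates the GTPase RAB8, stood at 180, 262 and 234 TPM against 66.6, 150.3 and 60.0 TPM (adjusted p = 0.0455), and Acss1, a mitochondrial acetyl-CoA synthetase, at 48.3, 58.4 and 50.5 TPM against 14.4, 37.4 and 13.4 TPM (adjusted p = 0.0489). Both rest chiefly on model replicates 1 and 3, with model replicate 2 nearer to normal. Bbof1, a basal body protein gene, went from 8.31 to 14.7 TPM down to 0.71 to 0.84 TPM. Gne, the key enzyme of sialic acid synthesis, stood at 24.6, 29.5 and 26.0 TPM against 7.79, 15.3 and 6.08 TPM (log2 fold change -1.46 ± 0.287, adjusted p = 0.0270).

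In 26 genes the call held whichever 1 of the 6 libraries was left out, 10 of them higher and 16 lower. Among the lower ones, MSTRG.10755 and MSTRG.10756 cover the same stretch of rn6 chromosome 3 (10941312 to 10943935) on opposite strands. Their values were equal in all 6 libraries, so they hold 1 signal. Of the higher ones Cks2, Relb, Gadd45g, Lta, Srebf1, Per2, Ier5 and Tsr2 have names, and of the lower ones Txnip, SNORA26, Aoc3, Tagap, SNORA16, Klrk1 and Evi2a. These genes were chosen after their values were seen. Gadd45g, a stress-induced adaptor of MAP kinases, stood at 3.29, 1.79 and 3.57 TPM against 32.8, 17.7 and 15.1 TPM (log2 fold change 2.51 ± 0.311, adjusted p = 0.00875). Ier5 stood at 251, 195 and 238 TPM against 751, 734 and 833 TPM (log2 fold change 1.76 ± 0.175, adjusted p = 0.00418). Per2, a repressor of the circadian clock, stood at 1.302, 1.426 and 1.304 TPM against 7.96, 5.38 and 10.3 TPM (log2 fold change 1.88 ± 0.227, adjusted p = 0.00795). In Ier5 and in Tsr2, which takes part in ribosome assembly, all 3 model libraries lay within a narrow range, with Tsr2 at 33.9, 44.2 and 33.3 TPM against 94.9, 92.3 and 109 TPM (adjusted p = 0.0125). Aoc3, a copper amine oxidase, was 3.51, 4.29 and 3.48 TPM against 0.35, 0.34 and 0.24 TPM (adjusted p = 0.00248), at a locus that holds 4 gene names. Evi2a, a membrane protein gene, was 70.3, 66.0 and 82.9 TPM against 31.0, 28.2 and 27.3 TPM (adjusted p = 0.00618).

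Markers of other blood cells were read beside these results. The T cell markers summed to 2558 to 3333 TPM in normal and 1995 to 2555 TPM in model libraries, with none of 9 past the threshold. In 3 of the 9 the model libraries lay wholly below the normal ones, beside 14.7% of all genes. Without model replicate 2, 4 were lower, beside 11.7% of all genes. Of 8 erythroid markers found, 4 of 6 tested rose, and the 8 summed to 345, 66.4 and 1128 TPM in normal replicates 1, 2 and 3 and to 16220, 3368 and 2424 TPM in model replicates 1, 2 and 3. None of the 4 passed with only the 6 libraries or when any library but model replicate 2 was left out. Epb42 was listed at 0 in all normal libraries and Slc4a1 stayed under 1 TPM in all 6. The neutrophil markers summed to 14.98 to 35.5 TPM in normal and 1.09 to 9.07 TPM in model libraries. S100a8 and S100a9 were the 2 of 10 neutrophil markers that reached 1 TPM on average, and both fell, though neither passed with only the 6 libraries (adjusted p = 0.0619 and 0.0949). Of the markers of B cells, monocytes, platelets and dendritic cells with class II genes, 5, 7, 6 and 6 were tested and none passed. Monocyte markers summed to 29.6 to 185 TPM in normal and 72.3 to 194 TPM in model libraries. The part of these cells in the other gene groups was not tested. Without haemoglobin, mitochondrial and ribosomal protein genes, 752 of the 758 called genes that remained in the fit were called again.

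**Figure D3:**
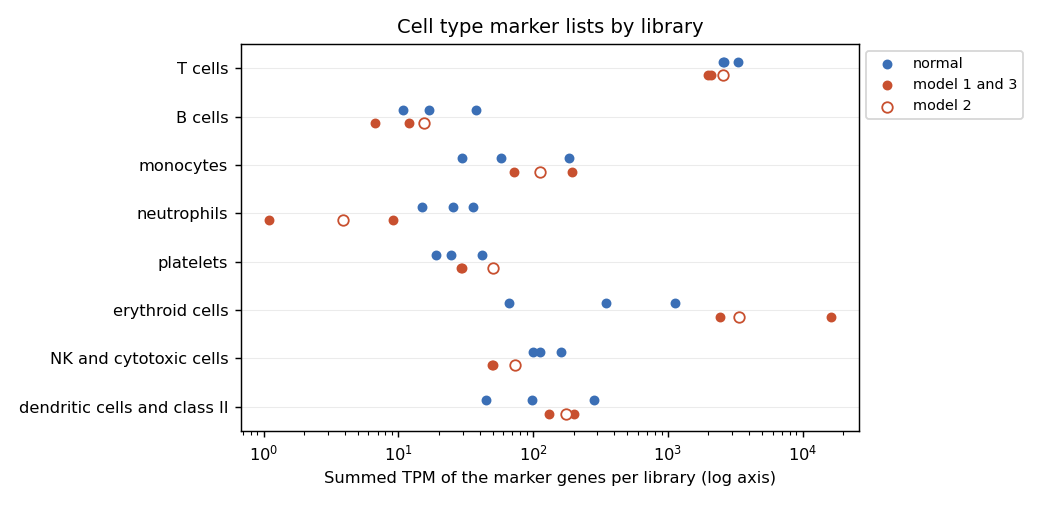
Summed TPM of 8 lists of cell type markers in each of the 6 libraries, on a log axis. Blue points are normal libraries, filled red points model replicates 1 and 3, and the open red point model replicate 2. Erythroid sums (2424 TPM or more in the model, 1128 TPM or less in normal libraries) and neutrophil and cytotoxic sums separate the groups. The cytotoxic sums do so only with Klrk1 and Klrd1 counted. T cell sums do so narrowly, at 2555 TPM or less in the model and 2558 TPM or more in normal libraries. Monocyte, platelet and dendritic cell sums overlap.

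At the level of single transcripts 88 of 35400 passed (0.249%), 54 higher (0.153%) and 34 lower (0.096%). Of these, 49 belonged to genes that also passed as a whole, and 58 were assembled by the authors' pipeline and not taken from the reference annotation. Transcript levels are estimates that divide reads among overlapping models, so a value listed at 0 can be a failed estimate. A transcript of Mbnl1, a splicing regulator, was listed at 14.5, 60.3 and 48.5 TPM in normal and at 0, 1.301 and 0 TPM in model libraries (adjusted p = 0.0493), while the gene did not pass. Trbc2, the constant region of the T cell receptor beta chain, had a reference transcript, ENSRNOT00000064892, at 34.1, 35.4 and 31.0 TPM against 6.82, 6.43 and 5.11 TPM (log2 fold change -2.28, adjusted p = 0.0371), again without a call for the gene. A transcript of Tsc22d3, MSTRG.18256.1, stood at 81.8, 159 and 83.0 TPM against 17.9, 8.85 and 10.6 TPM (log2 fold change -3.00, adjusted p = 0.0300), a larger fall than that of its gene. An assembled transcript of Nfkb2, MSTRG.2132.3, rose from 5.95, 1.87 and 3.60 TPM to 122, 41.2 and 84.9 TPM (log2 fold change 4.08, adjusted p = 0.0313). A transcript of Birc3, an inhibitor of apoptosis that ubiquitinates NF-kB regulators, stood at 2.36, 4.12 and 3.81 TPM against 24.4, 21.3 and 22.6 TPM (adjusted p = 0.0354). With only the 6 libraries the named transcripts of Trbc2 and Birc3 passed. Those of Mbnl1, Tsc22d3 and Nfkb2 did not (adjusted p = 0.0785, 0.0709 and 0.0691). The count of transcripts was 65 with only the 6 libraries, 1296 without model replicate 2, and 58, 36 and 38 without normal replicates 1, 2 and 3.

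Isoform use was measured as the ratio of a transcript to the other transcripts of its gene, so a change of the whole gene alone leaves it nearly unmoved. Of 7398 genes with at least 2 transcripts, 15 (0.203%) had a transcript whose ratio differed, 20 transcripts in all (0.069% of 29003). The shares of the gene's TPM did not overlap between groups for any of the 20. The calls used model replicate 2, so its place with the other model libraries is tied to their selection. The count was 40 genes with only the 6 libraries and 89 without model replicate 2. Without normal replicate 1, normal replicate 2 or model replicate 3 it was 33, 29 or 25. It was 11 without normal replicate 3 and 12 without model replicate 1. Of the 15 genes, Ift46, Acss1, Zmynd8, Kdm4b, Zcchc7 and Syne2 did not pass with only the 6 libraries (adjusted p = 0.0571 to 0.0988).

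Ccnk, the cyclin partner of CDK12 and CDK13 (rn6 chromosome 6, 132089068 to 132113561), did not pass as a gene, at 19.8 to 26.3 TPM in normal and 22.3 to 33.4 TPM in model libraries. Its assembled transcript MSTRG.14784.4 was listed at 0 in all 3 normal libraries and made up 72.1%, 76.6% and 74.8% of the gene in the model libraries (log2 ratio 6.01 ± 0.295, adjusted p = 0.000749). This transcript shares the 12 introns of the most abundant other transcript and has 1 more intron, which lies within an exon of the other. It was past the threshold whichever 1 of the 6 libraries was left out.

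Ankrd11, a chromatin regulator (rn6 chromosome 19, 55703824 to 55862513), did not pass as a gene either, at 48.0 to 59.4 TPM against 45.4 to 68.4 TPM. Its reference transcript ENSRNOT00000031389 held at most 0.0147% of the gene in normal libraries and 43.3%, 35.1% and 40.4% in model libraries (log2 ratio 5.20 ± 0.242, adjusted p = 0.000749). A pair of assembled transcripts went the other way, as MSTRG.8702.3 fell from 15.2%, 15.8% and 16.3% to 0.69%, 0.78% and 0.63%, and MSTRG.8702.1 from 11.9% to 13.9% down to 0.68% to 0.82%. On the minus strand the pair that fell start at 55862513 (MSTRG.8702.1) and 55862501 (MSTRG.8702.3), and ENSRNOT00000031389 starts at 55737500, so its first exon is not theirs. The calls of ENSRNOT00000031389 and MSTRG.8702.3 held without any single library.

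Tmem147, a membrane protein of the endoplasmic reticulum, fell as a gene, from 38.3 to 45.0 TPM down to 19.3 to 22.4 TPM. Its reference transcript ENSRNOT00000028514 (rn6 chromosome 1, 89177992 to 89179825) fell from 94.3%, 92.1% and 93.7% of the gene to 5.78%, 18.6% and 3.28%. The assembled MSTRG.718.1, which has the 6 introns of the reference and 1 more that leads to a last exon far downstream, rose from 3.41%, 5.03% and 2.55% to 86.4%, 75.8% and 90.7% (log2 ratio 6.20 ± 0.562, adjusted p = 0.0298). The call of MSTRG.718.1 was lost without model replicate 1 (adjusted p = 0.0659) and without normal replicate 3, and that of ENSRNOT00000028514 held only without model replicate 2.

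Tars, the threonine synthetase named among the rises, changed its transcripts as well as its level. ENSRNOT00000051910 was listed at 0, 2.70% and 0 of the gene in normal and at 40.9%, 52.0% and 38.3% in model libraries (adjusted p = 0.0425). Sat1, which acetylates polyamines for export, had an assembled transcript, MSTRG.18028.3, that keeps 1 intron of the main transcript as exon. Its share fell from 36.5%, 44.0% and 39.5% to 9.35%, 9.54% and 9.89% (log2 ratio -2.62 ± 0.249, adjusted p = 0.0305). The model libraries agreed within 1 percentage point in that share, although the gene ranged from 220 to 527 TPM among them. Zcchc7, a cofactor of nuclear RNA decay, had MSTRG.13114.23 at 35.6%, 41.6% and 48.0% against 13.5%, 10.2% and 12.96% (adjusted p = 0.0472).

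Other named transcripts appeared in the model from a level at or near 0. Zbtb10 MSTRG.9097.6 was listed at 0 in the normal libraries and held 41.3% to 44.4% in the model, Tnik ENSRNOT00000086399 at most 0.00526% and 30.7% to 46.0%, and Ift46 MSTRG.16282.10 at most 0.294% and 16.5% to 32.1%. Zbtb10 is a zinc finger repressor, Tnik a kinase of the Wnt and JNK pathways and Ift46 a protein of ciliary transport. Acss1 MSTRG.11486.6 and Zmynd8 MSTRG.11695.20 held at most 2.04% in normal and 9.55% to 22.6% in model libraries. Syne2, a linker of nucleus and cytoskeleton, had MSTRG.14547.10 at 12.4% to 17.2% in normal and at most 0.109% in model libraries (adjusted p = 0.0425). Of the 20 transcripts 3 held their call in each fit that left out 1 library, namely Ccnk MSTRG.14784.4, Ankrd11 ENSRNOT00000031389 and Ankrd11 MSTRG.8702.3.

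**Figure D4:**
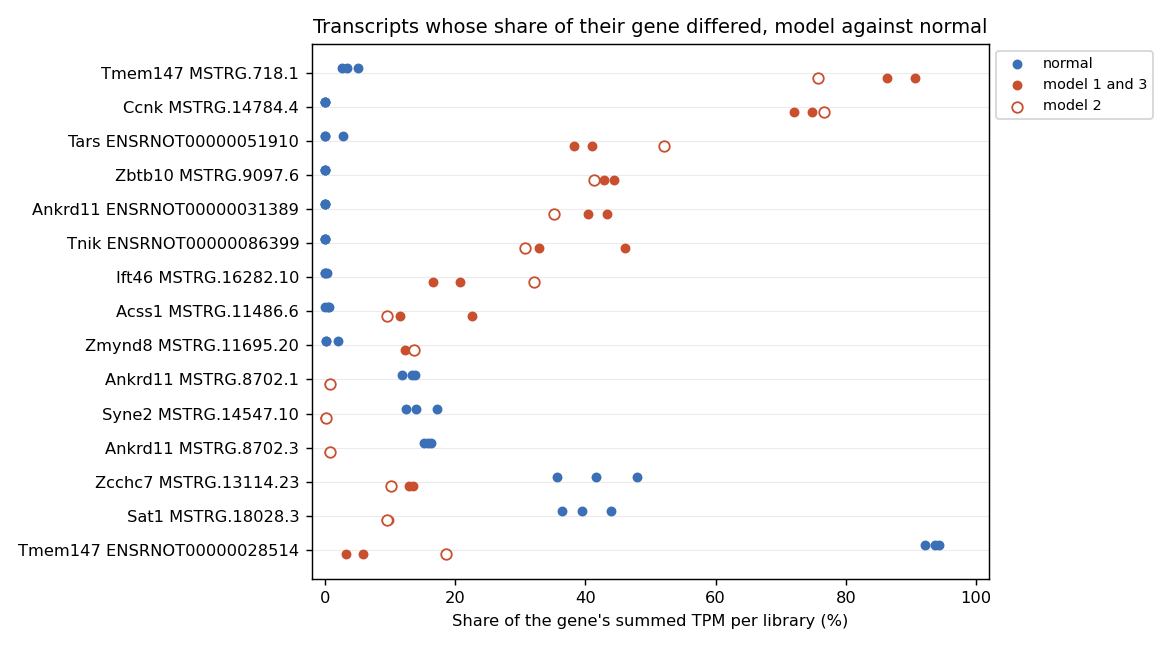
Share of the gene's summed TPM held by each of 15 named transcripts in the 6 libraries, in percent. Blue points are normal libraries, filled red points model replicates 1 and 3, and open red points model replicate 2. Ccnk MSTRG.14784.4 moves from 0 to over 72% and Tmem147 ENSRNOT00000028514 from over 92% to under 19%. Rows were drawn only where the shares of the groups do not overlap, so model replicate 2 sits with its group in each.

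Higher and lower genes differed in what they are. The median length of the longest transcript was 2926 bases among higher genes, 1138 bases among lower genes and 2474 bases among all tested, and 95 of the lower and 5 of the higher genes were under 300 bases, as were 724 of all tested genes (5.19%). Lower genes had a median of 1 exon and higher genes of 7, beside 6 over all genes. Of the lower genes 131 of 334 had no gene name, against 32 of 432 higher and 2771 of 13959 tested. The median level over the 6 libraries was 31.8 TPM for higher, 5.57 TPM for lower and 10.5 TPM for all tested genes. Of 73 genes under 300 bases that fell and met the conditions for being named, the 5 with the largest falls were small nucleolar RNA genes, which guide chemical changes of other RNAs, and 0 short genes met them among the rises. SNORA26 (rn6 chromosome 14, 36664720 to 36664840) stood at 6.48, 7.07 and 6.66 TPM against 0.62, 1.00 and 1.75 TPM (log2 fold change -1.90 ± 0.213, adjusted p = 0.00666). Promoters of higher genes held the cyclic AMP response element TGACGTCA in 26 of 316 (8.23%), beside 1 of 72 for lower genes (1.39%), 3.45% of all tested genes and 1.91% of all promoters of the RefSeq set. A log2 scale was set with the mean of the normal libraries at 0 and that of model replicates 1 and 3 at 1. On it model replicate 2 lay at a median of 0.674 among higher genes, 0.914 among lower genes and 0.368 over all genes tested. The calls themselves used model replicate 2, so its place among called genes is tied to their selection.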

How the data were processed

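RNA of 9 libraries was aligned with HISAT2 to rn6, per the submitters' processing notes (version not given in the sources used here), and quantified by the authors with StringTie 1.3.3b against a merged annotation, per the file headers. The deposited transcript lines carry coverage, FPKM and TPM, and TPM was used, with FPKM as an alternative.

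TPM of transcripts was summed per reference gene name within each assembled locus. Features that averaged 1 TPM or more over the 6 normal and model libraries were tested with limma 3.58.1 (R 4.3.3) on log2(TPM + 1), with 3 groups of 3 libraries, an intensity trend and Benjamini-Hochberg adjustment over all features, at a threshold of 0.05. A fold change on that scale understates the change of low genes. Adjusted p-values in the text are from this test. Isoform use was the log2 of (TPM + 1) of a transcript over (TPM + 1) of the rest of its gene. The test was checked on simulated data that gave all groups the same spread. The wider spread of the model group was not simulated, so the check does not cover it. A permutation test of 3 against 3 cannot go below 0.1.

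Named genes were the 25 largest rises and falls among called genes with at least 5 TPM in the higher group, groups that do not overlap and at least 300 bases, the 5 largest changes of shorter genes, up to 4 called members per gene list and the 15 largest isoform changes; some further genes, list members included, were named after their values were seen. One gene of this rule is not reported here. Members and lists were chosen with earlier results of these data known. Promoters (250 bases before to 50 after the start) are RefSeq's on GRCr8. Other pseudocounts, filters, scalings, sample sets, array weights and a replicate block were tried.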

Additional observations from a re-analysis of the deposited data

How the results depend on the processing

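No called gene that was in the fit changed direction under the alternatives compared gene by gene. These leave out sums over whole assembled loci, where 806 genes passed. Except with FPKM and in fits that rescaled TPM, the direction was fixed in advance, since the groups of the called genes did not overlap. The 766 genes became 290 with no filter on low values, 1298 with FPKM, 1576 with median-ratio scaling, 3193 with array weights and 1259 once haemoglobin, mitochondrial and ribosomal protein genes were removed. With only the 6 libraries 189 passed, and leaving out 1 library gave 36 (without normal replicate 2) to 2924 (without model replicate 2). In fits chosen after seeing the data, the 6 libraries without model replicate 2 gave 2896 genes, and model replicate 2 as the lone model library, assumed to vary like the other groups, gave 55. The 88 transcripts became 260 at a mean of at least 5 TPM, 373 with FPKM, 330 with median-ratio scaling, 411 with array weights and 36 to 1296 without 1 library. The 15 genes with an isoform change became 25 at a pseudocount of 0.1, 6 at a pseudocount of 5, 9 at a mean of at least 5 TPM, 23 with median-ratio scaling, 40 with only the 6 libraries and 11 to 89 without 1 library. The cause of these moves was not tested.

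Same-numbered libraries of the normal and model groups did not deviate together (correlations of 0.0149, 0.0290 and -0.0647). With so few libraries these values cannot exclude a pairing, and the labels do not say what the numbers stand for. With the replicate block 198 genes, 3 transcripts and 2 genes with an isoform change passed.

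Of 107 named called genes, 41 were called with only the 6 libraries, 107 without model replicate 2 and 11 without normal replicate 2. The share of higher genes among the calls was 56.4%, but 68.8% at a mean of at least 5 TPM, 49.7% with only the 6 libraries and 44.2% without model replicate 2. The deposited values hold no read counts, so no counting error is given.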

Other observations

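In lists chosen after the values were seen, further genes rose. V-ATPase subunits build the pump that acidifies lysosomes, and 5 of 17 tested rose (29.4%, beside 3.09% of all genes) with none lower. Their summed level was 1162, 1071 and 1090 TPM in normal replicates 1, 2 and 3 and 1898, 1411 and 2147 TPM in model replicates 1, 2 and 3. Atp6v1d stood at 40.8, 38.1 and 34.5 TPM against 147, 59.3 and 128 TPM (log2 fold change 1.44 ± 0.292, limma adjusted p = 0.0286). Of 9 Rag GTPase, Ragulator and folliculin genes, which tie mTORC1 to the lysosome, 4 rose (44.4%, beside 3.09% of all genes). Rragd stood at 7.31, 6.73 and 4.82 TPM against 40.2, 17.8 and 51.6 TPM (log2 fold change 2.25 ± 0.335, adjusted p = 0.0151). Tfe3, a factor that drives lysosomal genes, stood at 12.1, 7.76 and 8.96 TPM against 29.7, 29.4 and 35.7 TPM (log2 fold change 1.64 ± 0.227, adjusted p = 0.0131), and Tfeb differed by a log2 value of 0.15 (adjusted p = 0.848). Of 40 lysosomal hydrolases and membrane proteins 5 rose, Hexa, Mcoln1, Gaa, Clcn7 and Ctns, and the median of the list was 0.02. With only the 6 libraries Rragd, Tfe3 and Hexa passed and no V-ATPase subunit did. Without model replicate 2 the V-ATPase calls were 14 higher and 1 lower, beside 9.25% and 11.7% of all genes.

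Of 21 adaptors and kinases upstream of NF-kB 8 rose (38.1%, beside 3.09% of all genes) and none fell. Birc3 stood at 45.2, 22.3 and 24.8 TPM against 108, 146 and 149 TPM (log2 fold change 2.15 ± 0.293, adjusted p = 0.0128). Irak2, a kinase of Toll-like and IL-1 receptors, stood at 20.6, 28.6 and 22.2 TPM against 49.7, 53.8 and 43.8 TPM (adjusted p = 0.0253). Ripk2, the kinase of NOD receptors, stood at 17.0, 14.5 and 14.3 TPM against 26.2, 27.8 and 26.3 TPM (adjusted p = 0.0364). Model replicate 2 was not nearest to normal in these 3 genes. Birc3, Traf2 and Irak2 also passed with only the 6 libraries.

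Histone genes of the Hist clusters went the other way, with 6 of 35 lower (17.1%, beside 2.39% of all genes) and none higher. Hist1h4m stood at 40.7, 64.2 and 44.2 TPM against 20.3, 12.6 and 18.7 TPM (log2 fold change -1.48 ± 0.279, adjusted p = 0.0253). Of 201 small nucleolar RNA genes 78 were lower (38.8%, beside 2.39% of all genes) and none higher, while of all 724 tested genes under 300 bases 95 were lower. Some entries are copies or overlap, such as SNORD18 (rn6 chromosome 8, 69124161 to 69124231) and snoU18 (69124163 to 69124232), and others lie in clusters. The 78 are thus not 78 separate signals. All entries under 300 bases, these genes included, held 2.09% to 2.32% of the TPM in normal and 1.75% to 1.91% in model libraries. The part of this shift between libraries in the single falls was not tested. With only the 6 libraries 2 of the histone genes and 25 of the small nucleolar RNA genes were lower.

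Set beside the treated rats, isoform shares fell into different patterns, given as values with no test. The headers inside the combination files carry other sample names than the labels, and the labels were followed here. Ccnk MSTRG.14784.4, Tnik ENSRNOT00000086399 and Syne2 MSTRG.14547.10 were listed at 0 in all 3 combination libraries, the first 2 as in or near the normal group and the last near the model group. Ankrd11 ENSRNOT00000031389 held 53.5%, 43.5% and 47.7% of its gene in combination replicates 1, 2 and 3, and Zbtb10 MSTRG.9097.6 held 56.9%, 46.6% and 57.7%, both above the highest normal and model libraries. Tmem147 MSTRG.718.1 held 77.0%, 83.6% and 49.2%, and Zcchc7 MSTRG.13114.23 held 40.7%, 43.6% and 46.1%, within the normal range.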
